A study of Mus musculus with 14 samples.

Results

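Forkhead genes encode transcription factors that share a winged-helix DNA-binding domain, the forkhead box. Family letters mark subfamilies with distinct uses: FoxA factors open chromatin in endoderm, FoxO factors act below insulin and Akt signalling, Foxm1 drives genes of the late cell cycle, and FoxP factors act mostly as repressors. In pluripotent cells Foxd3 and Foxh1 have known roles, while many other members are held silent until a tissue forms. Methylation of histone H3 at lysine 4 marks their chromatin: H3K4me3 sits mainly at active or poised gene starts, H3K4me1 at enhancers and beside starts, and H3K4me2 in both settings.

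The family was taken as 41 named genes of 21887 protein-coding genes, out of 44 protein-coding genes with a Fox name. It was divided, from general knowledge of the genes, into 29 developmental or tissue-restricted members and 12 broadly expressed members (Foxj2, Foxj3, Foxk1, Foxk2, Foxm1, Foxn2, Foxn3, Foxo1, Foxo3, Foxo4, Foxp1 and Foxp4). The libraries came from C57BL/6J mouse embryonic stem cells of blastocyst origin, of the genotype Mll1fl/fl; Cre-ER TM, kept feeder-free on Matrigel with LIF, 5% serum and 15% serum replacement. All groups carry the floxed alleles and the tamoxifen-inducible Cre. The groups were cells given 100 µM MM-401, an inhibitor of the H3K4 methyltransferase Mll1 (Kmt2a), cells given 5 µM 4-hydroxytamoxifen (4-OHT), which lets the Cre act on Mll1, and untreated cells. Both treatments lasted 9 days, over 3 passages. Each group had 1 library per mark, and Mll1 itself was mapped in untreated cells only, so the loss of Mll1 after 4-OHT was not checked here.

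A level is the number of tags in all peaks of a mark that lie inside a gene or within 5 kb of either end, per 1000000 filtered tags of the library (tags/M). Intervals are 95% and cover counting error only. Filtered tags, in units of 1000000, ranged from 12.9 (H3K4me3, MM-401) to 61.8 (H3K4me1, 4-OHT). The MM-401 libraries held 49.5% to 60.3% of the untreated tags, and the 4-OHT libraries 167% (H3K4me1), 121% (H3K4me2) and 105% (H3K4me3). Per the file headers, MM-401 libraries were processed in a separate folder from the others. Their tags were 57 to 60 bp long, against 50 to 51 bp. The input of the marks held 12.2 in MM-401, 55.0 in 4-OHT and 36.6 in untreated cells, in units of 1000000 filtered tags. The fragment size d for H3K4me3 was 293 bp in MM-401, 186 bp in 4-OHT and 184 bp in untreated cells. Processing batch, depth, tag length, input and MM-401 cannot be told apart. The 7 pluripotency markers checked (Pou5f1, Nanog, Sox2, Zfp42, Esrrb, Klf4 and Tdgf1) all had H3K4me3, with summed levels of 1747 in MM-401, 1724 in 4-OHT and 1317 tags/M in untreated cells. Of the 5 fibroblast markers, Dcn and Acta2 had no H3K4me3 peak in any library, and the summed levels were 38.3 in MM-401, 55.5 in 4-OHT and 53.2 in untreated cells. The 3 primitive endoderm markers all had H3K4me3, with summed levels of 237 in MM-401, 227 in 4-OHT and 246 in untreated cells. Their part in the differences below was not tested.

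Promoter sequences were available from RefSeq (GRCm38.p6, mm10) for 27 of the 41 members, and they reach from 250 bases before the start to 50 bases from it on. Those shown belong to members whose marks stand at different ends of the family: Foxd3 (plus strand, chr4:99656049-99656348), with the most H3K4me3 of the developmental members; Foxi3 (plus strand, chr6:70956356-70956655), the member furthest higher in H3K4me2 after MM-401; Foxo3 (minus strand, chr10:42276646-42276945), with the most H3K4me3 of all; and Foxi1 (minus strand, chr11:34208040-34208339), without H3K4me3. Capitals mark the CpG pairs, each written 5′ to 3′ on the strand of the gene.
Foxd3: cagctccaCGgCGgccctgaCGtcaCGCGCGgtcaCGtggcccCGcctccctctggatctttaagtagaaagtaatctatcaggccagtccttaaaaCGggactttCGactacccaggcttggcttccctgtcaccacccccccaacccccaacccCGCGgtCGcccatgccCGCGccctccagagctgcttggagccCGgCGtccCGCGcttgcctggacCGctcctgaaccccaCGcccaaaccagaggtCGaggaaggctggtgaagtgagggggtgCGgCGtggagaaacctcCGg
Foxi3: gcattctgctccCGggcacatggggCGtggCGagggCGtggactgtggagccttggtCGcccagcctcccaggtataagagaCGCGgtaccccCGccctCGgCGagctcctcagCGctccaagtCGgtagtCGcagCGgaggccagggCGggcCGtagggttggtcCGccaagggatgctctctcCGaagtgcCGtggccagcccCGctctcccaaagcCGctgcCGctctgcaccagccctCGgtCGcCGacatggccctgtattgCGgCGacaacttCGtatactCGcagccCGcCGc
Foxo3: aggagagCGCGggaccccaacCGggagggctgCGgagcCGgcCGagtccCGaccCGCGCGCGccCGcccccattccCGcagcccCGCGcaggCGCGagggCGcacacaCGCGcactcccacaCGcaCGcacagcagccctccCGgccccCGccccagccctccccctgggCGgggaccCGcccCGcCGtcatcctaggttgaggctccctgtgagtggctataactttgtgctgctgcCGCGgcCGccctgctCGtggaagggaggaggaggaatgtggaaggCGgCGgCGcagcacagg
Foxi1: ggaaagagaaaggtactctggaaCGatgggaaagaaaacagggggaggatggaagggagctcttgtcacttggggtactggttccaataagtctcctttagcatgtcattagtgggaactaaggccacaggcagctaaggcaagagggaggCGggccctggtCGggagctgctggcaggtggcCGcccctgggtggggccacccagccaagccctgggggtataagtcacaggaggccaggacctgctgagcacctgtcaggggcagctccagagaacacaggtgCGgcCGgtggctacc
These 300 bases hold 25 CpG pairs in Foxd3, 31 in Foxi3, 35 in Foxo3 and 6 in Foxi1. Across the 27 members the median was 22 CpG pairs, against 13 over the 17492 protein-coding genes with a RefSeq promoter. Developmental members had a median of 16 (5 to 32, 19 genes) and broadly expressed members a median of 34 (6 to 59, 8 genes). The forkhead motif TGTTTAC, searched also as its reverse complement GTAAACA, was found in 1 of the 27 promoters, that of Foxa1 (3.70%), against 2.94% of all promoters.

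In untreated cells nearly every member had a peak of each of the 3 marks inside the gene or within 5 kb. H3K4me1 and H3K4me2 were found at 41 of 41 members, where 80.8% and 81.0% of all genes had them. H3K4me3 was found at 40 of 41 members, against 77.9% of all genes, and the member without it was Foxi1, a regulator of inner ear and kidney ion transport. With peaks shared with other genes left out, 36 of 41 members had H3K4me1, 37 H3K4me2 and 35 H3K4me3. The share of all genes was not computed for that setting. With shared peaks kept, developmental members were marked nearly as often as broadly expressed ones, with 28 of 29 and 12 of 12 carrying H3K4me3. A long gene can hold more peaks, and the groups differ in length: the median gene was 3.77 kb for developmental members, 59.0 kb for broadly expressed members and 17.2 kb over all genes. The developmental members held 101 H3K4me1 peaks in 29 genes, the broadly expressed members 207 in 12.

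**Figure D1:**
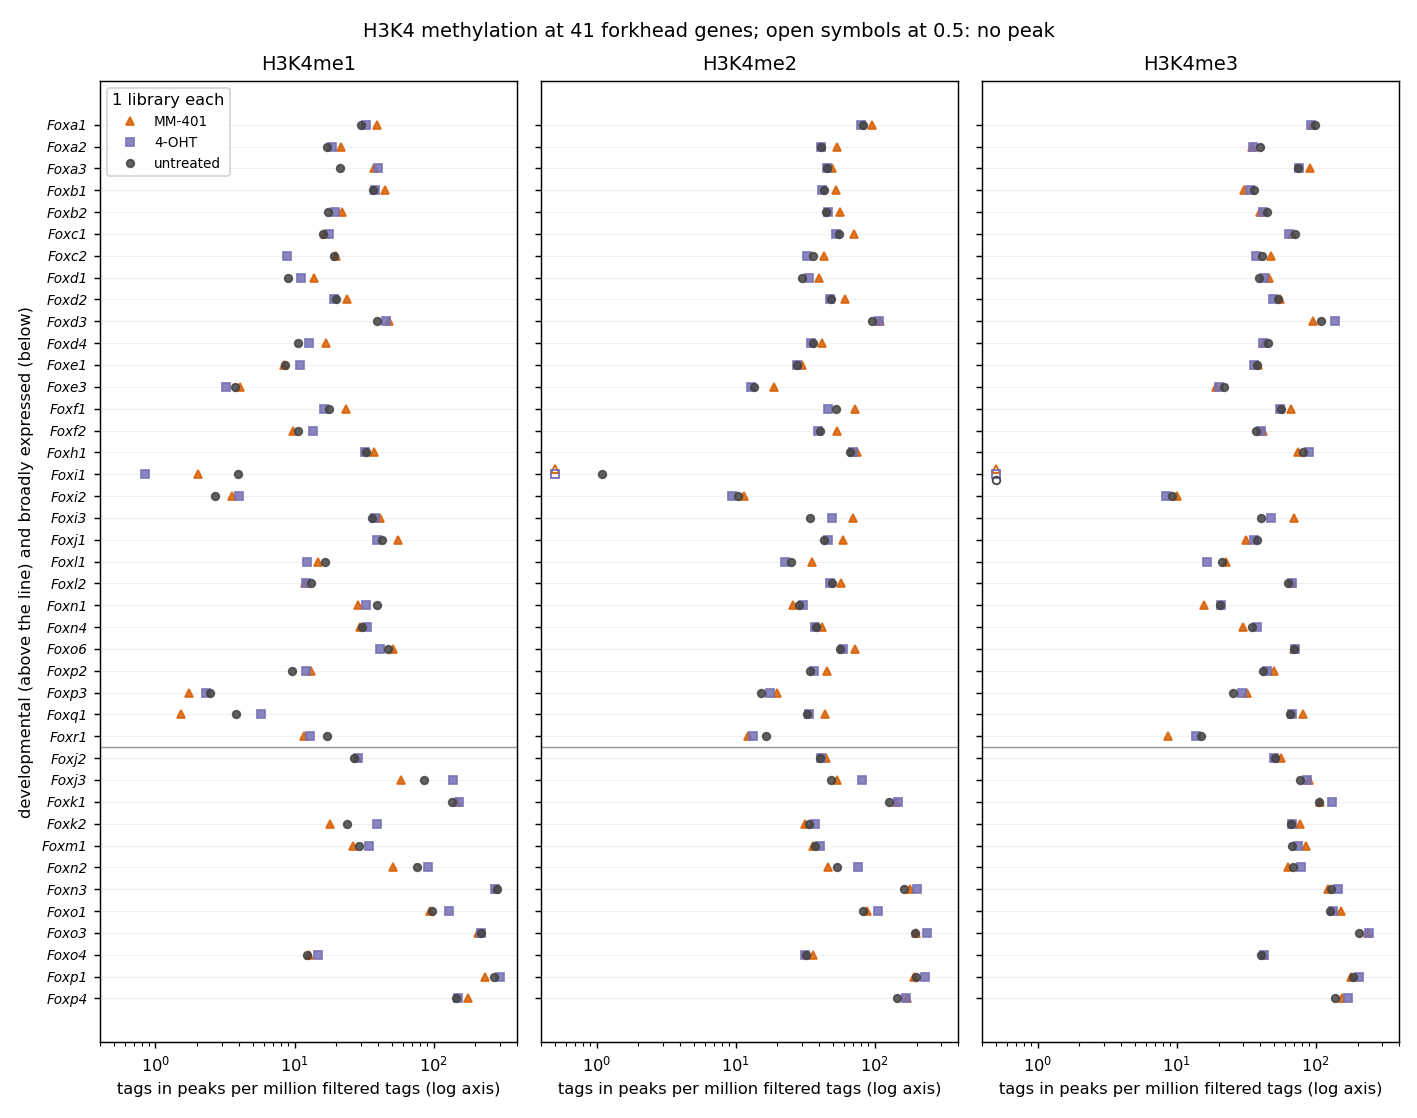
Levels of the 41 members in tags/M (log axis), 1 panel per mark, with developmental members above the line and broadly expressed members below it; triangles are MM-401, squares 4-OHT and circles untreated cells, and open symbols mark the absence of a peak. Most members have their 3 symbols close together. Foxi1 is the lowest member for H3K4me2 and H3K4me3, while for H3K4me1 Foxi1, Foxi2, Foxp3, Foxe3 and Foxq1 lie together at the low end.

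H3K4me3 levels in untreated cells spanned 9.26 tags/M at Foxi2, a gene of ectodermal placodes, to 206 at Foxo3, among the 40 members with a peak. The developmental median was 40.7 and the broadly expressed median 91.0, with 52.7 over all genes with a peak. The highest developmental members were Foxd3 (109), which keeps pluripotent cells and neural crest cells undifferentiated, Foxa1 (98.9), an endoderm pioneer factor, and Foxh1 (80.9), the partner of Smad2 in Nodal signalling. The highest broadly expressed members were Foxo3 (206), a stress and longevity regulator below Akt, Foxp1 (184), a repressor active in many tissues, and Foxp4 (137), its close relative. The lowest broadly expressed member, Foxo4, had 40.2 and lay among the developmental ones, so the ranges overlapped.

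Levels over whole genes grow with gene length, so the peak over the start was also compared per kb of its width. Of the 27 members with a RefSeq start, 23 had an H3K4me3 peak over it in untreated cells (85.2%, against 67.6% of all genes). Those without were Foxi1, Foxn1 (thymic epithelium), Foxp3 (regulatory T cells) and Foxn3. The listed start of Foxn3 lies 114 kb inside the annotated gene, and the gene held 10 H3K4me3 peaks elsewhere. Among members with the peak, developmental members had a median of 11.2 tags/M per kb in untreated cells (6.31 to 19.1, 16 genes) and broadly expressed members a median of 17.1 (12.8 to 25.6, 7 genes). The median of all genes with such a peak was 14.8. The groups overlapped: 5 of the 16 developmental members were at or above the lowest broadly expressed one.

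**Figure D2:**
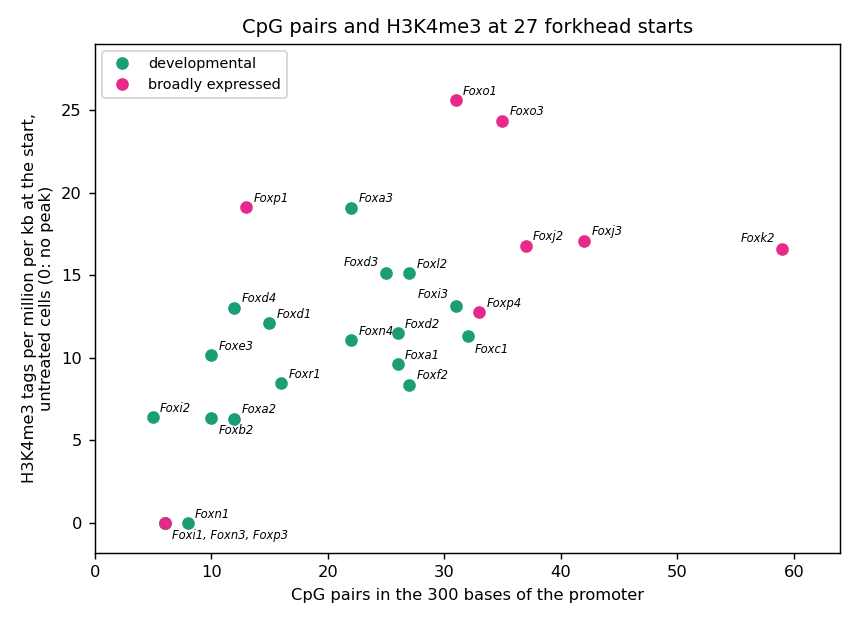
CpG pairs in the 300 bases of each RefSeq promoter (horizontal) against H3K4me3 tags/M per kb of the peak over the start in untreated cells (vertical), for 27 members coloured by group, with 0 for no peak. The 4 members without a peak over the start have 6 to 8 CpG pairs, and Foxo1 and Foxo3 are at the top with 31 and 35.

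The members without H3K4me3 over the listed start had few CpG pairs: 6 in Foxi1, Foxn3 and Foxp3, and 8 in Foxn1. Foxi2, with 5 CpG pairs, did carry a peak, of 6.41 tags/M per kb. At higher counts the densities were spread widely, with Foxf2 (27 pairs) at 8.38 and Foxo1 (31 pairs) at 25.6. These points share 1 library, and the CpG count is that of the first start listed where a gene has several.

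Mll1 peaks lay at 6 of 41 members (14.6%) in untreated cells, where 13.0% of all genes had one, so the share was near that of any gene. They were at Foxa1, Foxd3, Foxn2, Foxn3, Foxo3 and Foxp1, which is 2 of 29 developmental and 4 of 12 broadly expressed members. Each held 10 to 20 tags at a deposited false discovery rate of 1.83% to 3.65%, and none remained at a deposited score of at least 100. The Mll1 peak lay 1.56 kb from the nearer end of Foxd3, upstream of its start, and 2.70 kb from that of Foxo3. In Foxn3 and Foxp1 it lay deep inside the gene, 176 and 267 kb from the nearer end. All 6 lay on untreated H3K4me1 and H3K4me2 peaks, and those of Foxa1, Foxd3, Foxn2 and Foxo3 on H3K4me3 peaks as well. In both treatments all of these places but that of Foxp1 were still covered by H3K4me1 and H3K4me2. None of the 27 RefSeq promoters held an Mll1 peak, against 1.43% of all genes with one.

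**Figure D3:**
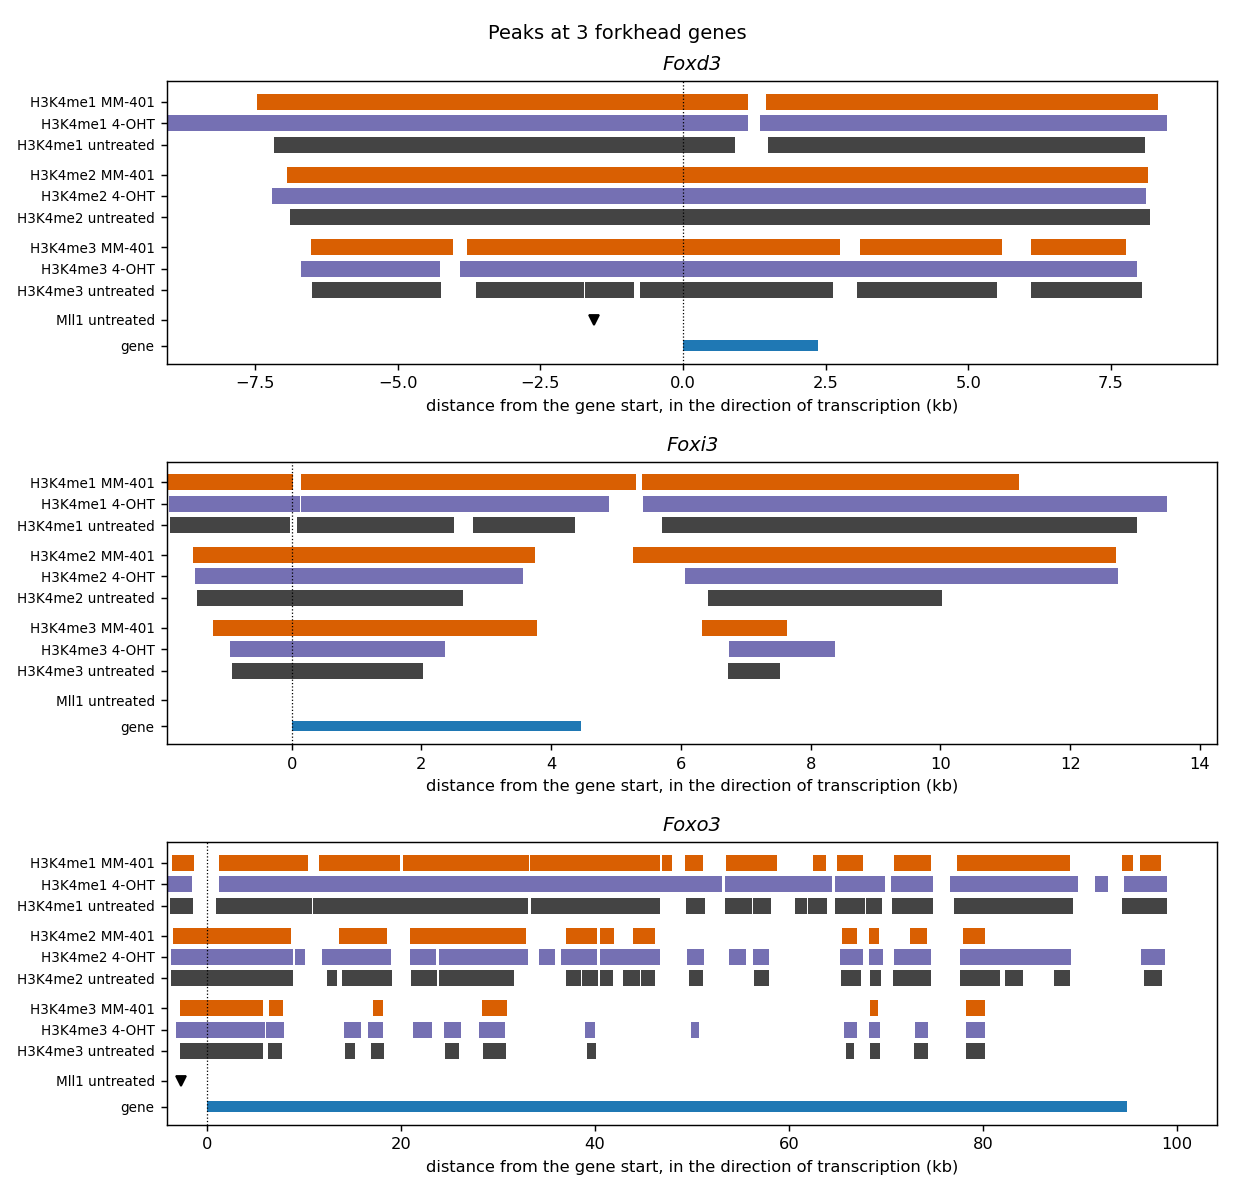
Peaks at Foxd3, Foxi3 and Foxo3 by distance from the gene start in kb, with MM-401, 4-OHT and untreated lists one above the other for each mark, triangles for Mll1 peaks and a blue bar for the gene. At Foxd3 the untreated H3K4me3 region is cut into 6 peaks and the 4-OHT region into 2, over nearly the same span. Peaks that begin beyond 5 kb from the gene are not drawn.

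Foxd3 carried the broadest H3K4me2 of the developmental members, a single peak of 15105 bp in MM-401, 15318 bp in 4-OHT and 15085 bp in untreated cells. Foxd3 H3K4me2 was at 108 in MM-401, 107 in 4-OHT and 96.3 in untreated cells. Foxd3 H3K4me1 was at 47.9 in MM-401, 45.2 in 4-OHT and 39.0 in untreated cells. These marks were highest in MM-401 and lowest in untreated cells. Foxd3 H3K4me3 was at 95.7 in MM-401 cells, 138 in 4-OHT cells and 109 in untreated cells. Its log2 ratio after 4-OHT, 0.35 (0.28 to 0.42), was the highest of the 40 members and a fold of 1.27. After MM-401 it was -0.18 (-0.28 to -0.09). The H3K4me3 peak over the start was 6538 bp wide in MM-401, 11866 bp in 4-OHT and 3391 bp in untreated cells. When peaks within 1 kb of each other were joined, the domain was 14285 bp in MM-401, 14663 bp in 4-OHT and 14551 bp in untreated cells, and each library then had 1 peak there.

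Foxh1, the other developmental member with a known role in these cells, differed less. Foxh1 H3K4me1 was at 37.1 in MM-401, 32.2 in 4-OHT and 32.6 in untreated cells. Foxh1 H3K4me2 was at 74.8 in MM-401, 69.9 in 4-OHT and 66.7 in untreated cells. Foxh1 H3K4me3 was at 74.9 in MM-401, 90.0 in 4-OHT and 80.9 in untreated cells. The 3 conditions were thus in a different order for each mark. Foxa2, an endoderm and midline factor, had H3K4me1 at 21.7 in MM-401, 18.5 in 4-OHT and 17.2 in untreated cells. Foxa2 H3K4me2 was at 53.6 in MM-401, 41.1 in 4-OHT and 41.1 in untreated cells. Foxa2 H3K4me3 was at 35.0 in MM-401, 35.3 in 4-OHT and 39.4 in untreated cells, and its log2 ratio after 4-OHT (-0.16) was the second lowest. None of these values passed 2-fold.

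MM-401 was compared with untreated cells at members with a peak in both libraries, to ask whether inhibition of Mll1 moves H3K4 methylation at these genes. Called means a difference of at least 2-fold in either direction. Medians are read against the median log2 ratio of all genes, since depth and scaling shift that median. Scaled by tags in peaks, in place of filtered tags, the all-gene median was 0.02 in place of -0.11 for H3K4me1 after MM-401, and -0.08 in place of 0.04 for H3K4me2 after 4-OHT. This scaling moves every gene of a comparison by the same amount, so counts of members above the all-gene median do not depend on it.

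For H3K4me1 after MM-401, the median log2 ratio was 0.05 over 41 members and -0.11 over all genes, with 28 of 41 members above that of all genes. The median was 0.19 for developmental members (21 of 29 above) and -0.07 for broadly expressed members (7 of 12 above). None was higher by 2-fold, where 0.847% of all genes were, and 1 was lower, where 5.03% of all genes were. That member was Foxq1, an epithelial and hair follicle factor, at 1.53 in MM-401, 5.70 in 4-OHT and 3.77 in untreated cells, a log2 ratio of -1.30 (-1.89 to -0.75) after MM-401. Its MM-401 value was a single peak of 34 tags and 839 bp, beside the untreated peak of 2257 bp and not overlapping it. The 4-OHT list held a peak at each of these places. Foxq1 H3K4me2 was at 43.7 in MM-401, 33.8 in 4-OHT and 32.4 in untreated cells. Foxq1 H3K4me3 was at 81.3 in MM-401, 67.4 in 4-OHT and 65.7 in untreated cells. For Foxq1, then, the marks differed in direction after MM-401.

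The other low H3K4me1 ratios after MM-401 were Foxi1 (-0.95) and Foxn2 (-0.58), a broadly expressed factor with 50.8 in MM-401, 90.9 in 4-OHT and 75.8 in untreated cells. The high ones were Foxd4 (0.67), a relative of Foxd3 with 17.0 in MM-401, 12.8 in 4-OHT and 10.7 in untreated cells, and Foxd1 (0.62), a kidney stroma factor with 13.9 in MM-401, 11.2 in 4-OHT and 9.03 in untreated cells. The highest was Foxa3 (0.82), a liver and gut factor with 37.5 in MM-401, 39.8 in 4-OHT and 21.3 in untreated cells. An untreated peak of 12.3 tags/M ended 79 bp beyond the 5 kb window of Foxa3, while the matching treated peaks (15.2 in MM-401 and 13.2 in 4-OHT) ended inside it. These peaks also lie within 5 kb of Irf2bp1 and Mypop, and the Foxa3 H3K4me1 ratios of both treatments rest largely on the edge of the window.

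For H3K4me2 after MM-401 most developmental members stood above the median of all genes. The median log2 ratio was 0.21 over 40 members and 0.08 over all genes, with 33 of 40 members above that of all genes. It was 0.33 for developmental members, 26 of 28 of which were above the all-gene median, and 0.12 for broadly expressed members, with 7 of 12 above. 1 member passed 2-fold, Foxi3, where 0.479% of all genes were higher and 1.57% lower. In developmental members the median log2 ratio of summed width was -0.02 and that of tags/M per kb 0.34. In broadly expressed members they were -0.38 and 0.44, so per kb the broadly expressed median was the higher one. Over all genes the width ratio was -0.17 and the ratio per kb 0.27, so tags per kb were higher in MM-401 across the genome. The 7 pluripotency markers were all above the all-gene median as well, with a median of 0.15. At the starts, 15 of 16 developmental members and 7 of 7 broadly expressed members had more H3K4me2 tags in MM-401, with medians of 0.35 and 0.31. Over all genes, 9939 of 11923 had more, with a median of 0.18, so a higher start peak was the usual case.

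Foxi3, a factor of ectodermal placodes and hair, had H3K4me2 at 69.5 in MM-401, 49.1 in 4-OHT and 34.2 in untreated cells. Against untreated cells, MM-401 gave a log2 ratio of 1.03 (0.92 to 1.13) and 4-OHT one of 0.52 (0.43 to 0.62). Foxi3 H3K4me3 was at 69.4 in MM-401, 47.6 in 4-OHT and 40.1 in untreated cells, log2 ratios of 0.79 and 0.25, while H3K4me1 was 41.2 in MM-401, 38.1 in 4-OHT and 35.9 in untreated cells. The peak over its start was larger in both marks after MM-401: for H3K4me2 36.6 tags/M over 5269 bp in MM-401 and 23.4 over 4103 bp in untreated cells, and for H3K4me3 66.8 over 4999 bp in MM-401 and 38.8 over 2946 bp in untreated cells. The H3K4me3 density of that peak was 13.4 tags/M per kb in MM-401 and 13.2 in untreated cells, so the larger level came with a wider peak. Downstream of the gene, the MM-401 list had 1 H3K4me2 peak of 7446 bp with 32.9 tags/M and the 4-OHT list 1 of 6679 bp with 24.2. The untreated list split that stretch into a peak of 10.8 and another of 8.14 tags/M, and the second began 565 bp beyond the window. At a 10 kb window, or with each peak counted by its share inside the window, Foxi3 no longer passed 2-fold. The start peak also lies within 5 kb of Tex37.

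The other high H3K4me2 ratios after MM-401 were Foxl1 (0.50), a gut mesenchyme factor with 35.5 in MM-401, 22.5 in 4-OHT and 25.2 in untreated cells, and Foxe3 (0.49), a lens factor with 19.0 in MM-401, 13.0 in 4-OHT and 13.5 in untreated cells. The lowest were Foxr1 (-0.41), Foxn2 (-0.20), with 46.5 in MM-401, 75.5 in 4-OHT and 53.6 in untreated cells, and Foxn1 (-0.14), with 25.7 in MM-401, 30.5 in 4-OHT and 28.4 in untreated cells. Foxi1 kept no H3K4me2 peak in MM-401 or 4-OHT. Its untreated peak, over the start, held 44 tags (1.10 tags/M, 0.80 to 1.47). No other member lost every peak of a mark in a treatment. Every H3K4me2 peak was lost at 3.41% of genes with one after MM-401 and at 0.609% after 4-OHT. For H3K4me1 these shares were 4.57% after MM-401 and 0.667% after 4-OHT, and for H3K4me3 4.49% after MM-401 and 0.926% after 4-OHT, with 0 members in each. A list shows no value below its calling threshold, so the remaining level is unknown.

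For H3K4me3 after MM-401, the median log2 ratio was 0.07 over 40 members and 0.09 over all genes, with 19 of 40 members above that of all genes. It was 0.01 for developmental members (12 of 28 above) and 0.16 for broadly expressed members (7 of 12 above). No member passed 2-fold, where 0.368% of all genes were higher and 3.03% lower. At 1.5-fold 2 members passed, Foxi3 (higher) and Foxr1 (lower), and the share of all genes was not computed there. The highest after Foxi3 were Foxp3 (0.33), with 32.0 in MM-401, 29.3 in 4-OHT and 25.6 in untreated cells, and Foxm1 (0.32), with 84.6 in MM-401, 74.6 in 4-OHT and 67.6 in untreated cells. The lowest after Foxr1 were Foxn1 (-0.37), with 15.7 in MM-401, 20.8 in 4-OHT and 20.3 in untreated cells, and Foxj1 (-0.27), the master factor of motile cilia, with 31.6 in MM-401, 36.2 in 4-OHT and 38.0 in untreated cells. Foxp3 and Foxn1 each had 1 H3K4me3 peak per library, and in no library did it lie over a listed start. Some peaks near Foxp3 also lay within 5 kb of Ccdc22 or Ppp1r3f, and some near Foxn1 within 5 kb of Unc119.

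Foxr1 had H3K4me3 at 8.66 in MM-401, 13.8 in 4-OHT and 14.9 in untreated cells. The log2 ratio after MM-401 was -0.78 (-1.10 to -0.47) and its H3K4me3 is a single peak over the start in each library, 1694 bp in MM-401, 2045 bp in 4-OHT and 1755 bp in untreated cells. Foxr1 H3K4me1 was at 11.7 in MM-401, 12.8 in 4-OHT and 17.0 in untreated cells. Foxr1 H3K4me2 was at 12.4 in MM-401, 13.4 in 4-OHT and 16.4 in untreated cells. Both marks were lower in the treated cells. The H3K4me2 peak over the start itself held 12.4 tags/M in MM-401, 12.0 in 4-OHT and 12.5 in untreated cells. Treated peaks of 1.87 (MM-401) and 1.36 (4-OHT) began 113 and 106 bp beyond the window, next to an untreated one of 2.65 inside it.

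**Figure D4:**
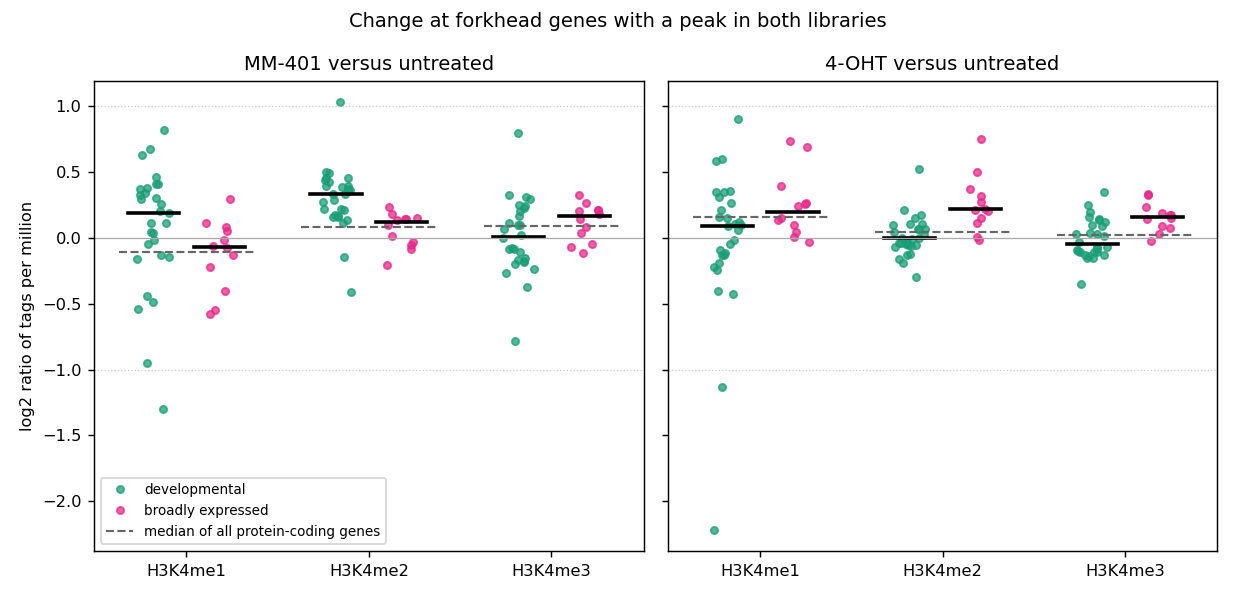
Log2 ratio of tags/M after MM-401 (left) and 4-OHT (right) against untreated cells for members with a peak in both libraries, by mark and group; black bars are group medians, dashed lines the median of all protein-coding genes and dotted lines 2-fold. Developmental members sit above the all-gene median for H3K4me2 after MM-401, and broadly expressed members for H3K4me2 and H3K4me3 after 4-OHT.

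4-OHT was compared with the same untreated libraries, so its ratios share their controls with those of MM-401. For H3K4me1 the median log2 ratio was 0.10 over 41 members and 0.16 over all genes, with 16 of 41 members above that of all genes. It was 0.09 for developmental members (10 of 29 above) and 0.19 for broadly expressed members (6 of 12 above). None was higher by 2-fold, where 3.97% of all genes were, and 2 were lower, Foxi1 and Foxc2, where 1.02% of all genes were. Foxi1 had H3K4me1 at 2.03 in MM-401, 0.84 in 4-OHT and 3.90 in untreated cells, a log2 ratio of -2.21 (-2.70 to -1.75) after 4-OHT. The untreated cells had 2 peaks there, 1 at the gene's far end and 1 over the start. MM-401 cells had only the first and 4-OHT cells only the second.

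Foxc2, a factor of lymph vessels and mesoderm, had H3K4me1 at 19.7 in MM-401, 8.76 in 4-OHT and 19.3 in untreated cells, a log2 ratio of -1.14 (-1.30 to -0.97) after 4-OHT. The call rests on the window: a peak shared with the neighbour Foxl1, of 5.99 tags/M in untreated cells, was also there in 4-OHT cells with 5.34, but began 127 bp beyond the 5 kb window of Foxc2. With 1 or 10 kb, or with each peak counted by its share inside the window, Foxc2 was not called. Its peak over the gene held 11.0 in MM-401, 7.64 in 4-OHT and 9.38 in untreated cells. For Foxc2, H3K4me2 was 43.3 in MM-401, 32.8 in 4-OHT and 35.9 in untreated cells. Foxc2 H3K4me3 was at 47.5 in MM-401, 37.1 in 4-OHT and 41.3 in untreated cells. Foxl1 had H3K4me1 at 14.9 in MM-401, 12.3 in 4-OHT and 16.6 in untreated cells. Foxl1 H3K4me3 was at 22.7 in MM-401, 16.6 in 4-OHT and 21.3 in untreated cells, the lowest H3K4me3 ratio after 4-OHT (-0.35, -0.54 to -0.17).

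The high H3K4me1 ratios after 4-OHT were Foxa3 (0.90), Foxk2 (0.73), with 17.9 in MM-401, 39.3 in 4-OHT and 23.7 in untreated cells, and Foxj3 (0.69), with 58.2 in MM-401, 137 in 4-OHT and 85.3 in untreated cells. Foxk2 and Foxj3 are broadly expressed factors, and both were on the other side of untreated cells after MM-401. Foxj3 also had the highest H3K4me2 ratio (0.75), with 53.4 in MM-401, 81.4 in 4-OHT and 48.4 in untreated cells. Its H3K4me2 list held 10 peaks in 4-OHT and 4 in untreated cells, while the peak over the start held 34.8 in 4-OHT and 34.7 in untreated cells, and the additional 4-OHT peaks lay inside the gene.

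For H3K4me2 after 4-OHT, the median log2 ratio was 0.05 over 40 members and 0.04 over all genes. It was -0.01 for developmental members, with 11 of 28 above the all-gene median, and 0.21 for broadly expressed members, with 10 of 12 above. None passed 2-fold, where 1.01% of all genes were higher and 0.329% lower. After Foxj3 and Foxi3 the highest was Foxn2 (0.49), and the lowest were Foxr1 (-0.30), Foxf1 (-0.19), a lung and gut mesenchyme factor with 71.7 in MM-401, 46.1 in 4-OHT and 52.6 in untreated cells, and Foxl1 (-0.16).

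For H3K4me3 after 4-OHT, the median log2 ratio was 0.03 over 40 members and 0.02 over all genes, and scaled by tags in peaks -0.052 and -0.068. It was -0.05 for developmental members, with 12 of 28 above the all-gene median, and 0.16 for broadly expressed members, with 11 of 12 above. None passed 2-fold, where 0.971% of all genes were higher and 0.539% lower. The broadly expressed members held more covered length rather than denser peaks, with a median log2 ratio of 0.29 for summed width and -0.14 for tags/M per kb, against 0.08 and -0.08 over all genes. The high ratios were Foxd3, Foxp4 (0.33), with 155 in MM-401, 172 in 4-OHT and 137 in untreated cells, and Foxk1 (0.33), a repressor linked to metabolism, with 108 in MM-401, 132 in 4-OHT and 105 in untreated cells. At the start peaks of the 7 broadly expressed members with one, the median log2 ratio was 0.03, against 0.01 over all genes.

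Between the groups of members, the developmental median log2 ratio minus the broadly expressed one was 0.26 for H3K4me1, 0.21 for H3K4me2 and -0.15 for H3K4me3 after MM-401. After 4-OHT it was -0.11, -0.22 and -0.21. For H3K4me3 the log2 ratios of 28 developmental members ran from -0.78 to 0.79 with MM-401 and from -0.35 to 0.35 with 4-OHT. Those of 12 broadly expressed members ran from -0.12 to 0.32 and from -0.03 to 0.33. For H3K4me2 with 4-OHT the ranges were -0.30 to 0.52 and -0.02 to 0.75. A range grows with the number of genes, so these are not read as a difference in spread. The differences between group medians for H3K4me1 and H3K4me2 had opposite signs in the 2 treatments, and those for H3K4me3 the same sign. With peaks shared with other genes left out, the H3K4me3 difference after MM-401 was -0.014 and the H3K4me1 difference after 4-OHT -0.034. With lists of equal number, the H3K4me2 difference after MM-401 was 0.13. For summed width after MM-401, developmental members had median log2 ratios of -0.07 (H3K4me1) and -0.02 (H3K4me2). Broadly expressed members had -0.25 and -0.38. After 4-OHT the developmental values were 0.15 and 0.01, and the broadly expressed ones 0.29 and 0.31. For tags/M per kb the order of the groups was reversed for H3K4me2 after MM-401 (0.34 developmental, 0.44 broadly expressed) and for all marks after 4-OHT. For H3K4me1, H3K4me2 and H3K4me3 after 4-OHT, developmental members had -0.07, 0.01 and -0.05 and broadly expressed members -0.11, -0.08 and -0.14. The order was kept for H3K4me1 and H3K4me3 after MM-401. The part of width, gene length and depth in the group differences was not tested. Each difference is a description of 1 pair of libraries, with no test.

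**Figure D5:**
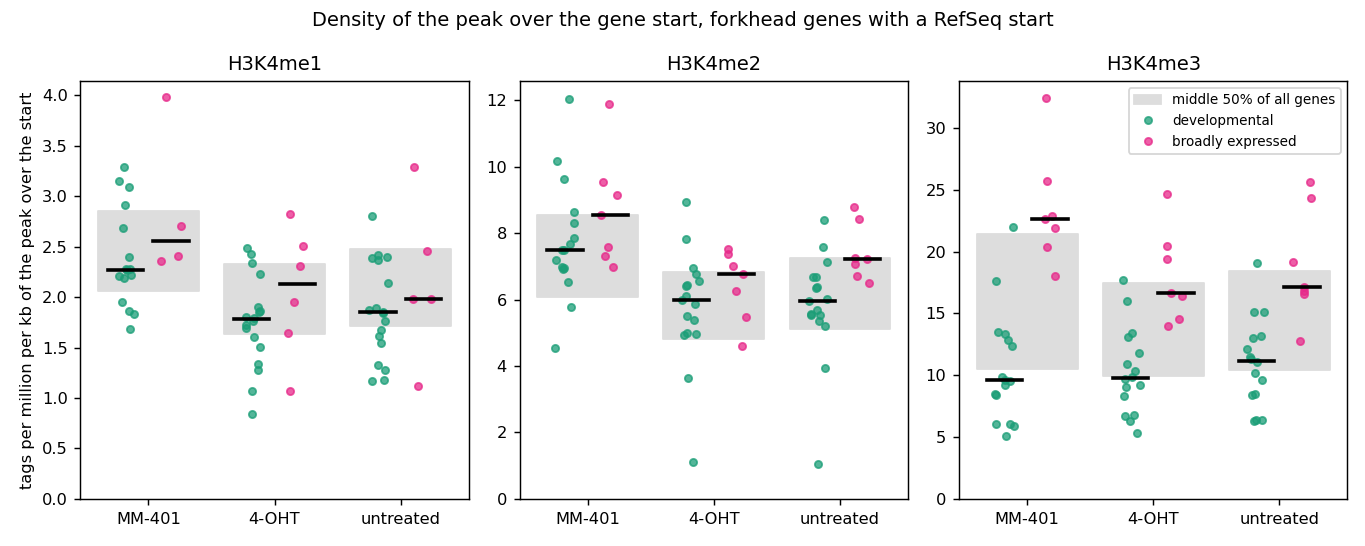
Tags/M per kb of the peak over the start for members with a RefSeq start, by mark and condition, with developmental and broadly expressed members side by side, black bars for medians and grey boxes for the middle 50% of all genes. For H3K4me3 the broadly expressed medians are 22.6 in MM-401, 16.6 in 4-OHT and 17.1 in untreated cells, above the developmental medians of 9.59 in MM-401, 9.78 in 4-OHT and 11.2 in untreated cells.

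At the starts, the separation of the groups in H3K4me3 was widest in MM-401 cells. Developmental members had a median of 9.59 tags/M per kb in MM-401, 9.78 in 4-OHT and 11.2 in untreated cells, and broadly expressed members 22.6 in MM-401, 16.6 in 4-OHT and 17.1 in untreated cells. All genes had 16.4 in MM-401, 14.0 in 4-OHT and 14.8 in untreated cells. In MM-401 only 1 of 16 developmental members was at or above the lowest broadly expressed one, against 2 of 16 in 4-OHT and 5 of 16 in untreated cells. Each count rests on 1 lowest gene, Foxj2 in MM-401 (18.1) and Foxp4 in 4-OHT (14.0) and untreated cells (12.8). After MM-401 the H3K4me3 tags of the start peak were higher at 7 of 7 broadly expressed members (median log2 ratio 0.27) and at 10 of 16 developmental members (median 0.08). Over all genes they were higher at 8395 of 11424, with a median of 0.17. With 16 and 7 genes, neither group count is read as different from the share of all genes.

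Foxo1, a metabolic regulator below Akt, had H3K4me1 at 93.8 in MM-401, 129 in 4-OHT and 98.0 in untreated cells. Foxo1 H3K4me2 was at 87.5 in MM-401, 106 in 4-OHT and 81.8 in untreated cells. Foxo1 H3K4me3 was at 153 in MM-401, 134 in 4-OHT and 127 in untreated cells. Foxo1 was thus highest in 4-OHT for H3K4me1 and H3K4me2 and in MM-401 for H3K4me3, which was 1 peak in MM-401 and in untreated cells and 5 peaks in 4-OHT. Foxo3 had H3K4me1 at 208 in MM-401, 220 in 4-OHT and 220 in untreated cells. Foxo3 H3K4me2 was at 198 in MM-401, 236 in 4-OHT and 196 in untreated cells. Foxo3 H3K4me3 was at 238 in MM-401, 243 in 4-OHT and 206 in untreated cells. For H3K4me3 both treated libraries were above the untreated one, by log2 ratios of 0.21 in MM-401 and 0.24 in 4-OHT. The widest Foxo3 H3K4me3 peak was 8527 bp in MM-401, 9164 bp in 4-OHT and 6812 bp in untreated cells, and 10643 bp in MM-401, 11129 bp in 4-OHT and 10503 bp in untreated cells after joining.

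Foxm1, the cell cycle factor, had H3K4me1 at 26.5 in MM-401, 34.4 in 4-OHT and 29.1 in untreated cells. Foxm1 H3K4me2 was at 35.9 in MM-401, 40.3 in 4-OHT and 37.3 in untreated cells. Its peaks also lie within 5 kb of Rhno1, Tex52 or Tulp3. Both were highest in 4-OHT and lowest in MM-401. Foxp1 had H3K4me1 at 234 in MM-401, 300 in 4-OHT and 273 in untreated cells. Foxp1 H3K4me2 was at 192 in MM-401, 229 in 4-OHT and 197 in untreated cells. Foxp1 H3K4me3 was at 178 in MM-401, 205 in 4-OHT and 184 in untreated cells. All 3 marks were highest in 4-OHT and lowest in MM-401. Its gene spans 597 kb and held 36 H3K4me1 peaks in MM-401, 54 in 4-OHT and 62 in untreated cells, where the MM-401 library had 60.3% and the 4-OHT library 167% of the untreated tags.

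Genes around the family were read from lists of 12 Nodal pathway genes, 13 FoxO regulators, 7 FoxO targets and 5 Foxm1 targets, all found. None lost every peak of a mark in either treatment. Past 2-fold were 3 genes, all higher after treatment. Sod2, a mitochondrial superoxide dismutase and FoxO target, had H3K4me1 at 47.6 in MM-401 and 23.1 in untreated cells, where 0.847% of all genes were higher. Usp7, a deubiquitinase that acts on FoxO proteins, had H3K4me2 at 412 in 4-OHT and 196 in untreated cells, and Cdc25b, a cell cycle phosphatase and Foxm1 target, at 71.7 in 4-OHT and 21.7 in untreated cells, where 1.01% of all genes were higher. For H3K4me3 after MM-401, 9 of 12 Nodal genes, 7 of 13 FoxO regulators, 5 of 7 FoxO targets and 4 of 5 Foxm1 targets were above the all-gene median. After 4-OHT the counts were 10 of 12, 9 of 13, 3 of 7 and 1 of 5. For H3K4me2, in the same order of lists, they were 10 of 12, 8 of 13, 5 of 7 and 1 of 5 after MM-401, and 7 of 12, 10 of 13, 5 of 7 and 2 of 5 after 4-OHT. For H3K4me1 they were 8 of 12, 7 of 13, 5 of 7 and 2 of 5 after MM-401, and 3 of 12, 8 of 13, 4 of 7 and 4 of 5 after 4-OHT. FoxO regulators had 7 to 10 of 13 genes above the all-gene median in the 6 comparisons. The other lists had most of their genes above it in some comparisons and not in others. As many genes lie above a median as below it, so 7 of 13 is near the share of all genes. Both treatments were compared with the same untreated libraries. A peak near 19 of the 41 members also lay within 5 kb of another protein-coding gene, and cannot be assigned to either from these lists.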

How the data were processed

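Chromatin immunoprecipitation sequencing was used for 10 precipitated libraries and 4 inputs, with 4 µg of Mll1 antibody or 2 µg of antibody to each mark, after fixation in 1% PFA for 10 min. Per the file headers, the deposited peak lists were called by the authors with MACS 1.4.2, 1 library against 1 input, at a p cutoff of 1e-05, with 1 duplicate kept per position and no pooling. The submitters' processing notes name Bowtie2, SAMtools 1.5, MACS2 and mm10. Each list holds the authors' tag count per peak, a deposited score (a multiple of the negative log10 of the MACS p-value, lowest 50.0), a deposited fold enrichment ratio, which was not used, and a deposited false discovery rate in percent. Peak widths in bp are also the authors'.

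Peaks were assigned to every RefSeq protein-coding gene within 5 kb, with all tags of the peak counted, and tags were divided by the filtered tags of the header. Intervals are exact Poisson for a level and exact binomial for a ratio of 2 counts. There was 1 library per group, so no difference has a replicate check and no test was run. Genes named in each comparison are those past 2-fold, those that lost every peak, and the 3 highest and 3 lowest ratios, along with Foxd3, Foxh1, Foxa2, Foxo1, Foxo3, Foxm1 and Foxp1. Sod2, Usp7 and Cdc25b, and the highest members by level or density, were named after their values were seen. The members and lists were chosen with earlier results of these data known, and the measures at gene starts and the check of window edges were added after the data were examined. Promoters are RefSeq sequences of GRCm38.p6, and 14 members had no entry. Python 3.11.15, NumPy 2.4.6, SciPy 1.17.1, pandas 2.3.3 and matplotlib 3.10.9 were used, and the scripts were tested on simulated data.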

Additional observations from a re-analysis of the deposited data

How the results depend on the processing

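Of 131 alternative values, 20 moved: counts by over 1.5 times, medians to outside the 95% interval of the median. These intervals are wide, so the other 111 include visible shifts, such as a median log2 ratio of H3K4me1 after MM-401 of 0.19 with lists of equal number, against 0.05, and 4 members with Mll1 at 1 kb, against 6. No member with Mll1 remained at a score of at least 100 (0, against 6). The shares of all genes past 2-fold at the same setting follow below as higher and lower, and none was computed at 1.5-fold. Members past 2-fold in H3K4me1 after MM-401 numbered 1, and 5 at 1.5-fold. With a 1 kb window 2 were higher and 1 lower among Foxq1, Foxi3 and Foxb1 (all genes 1.04% and 5.57%). At a score of at least 100 there were 0 (0.781% and 9.46%). Without shared peaks 2 were lower, Foxk2 and Foxq1 (1.69% and 6.76%). In H3K4me2 after MM-401 they numbered 1. With 1 kb 2 were higher, Foxi3 and Foxl1 (0.608% and 1.46%). There were 0 with 10 kb (0.420% and 1.56%) and 0 by share of each peak (0.251% and 1.45%). In H3K4me3 after MM-401 they numbered 0, and 2 at 1.5-fold. Without shared peaks there was 1, higher, Foxa3 (0.249% and 5.99%). In H3K4me1 after 4-OHT they numbered 2, both lower, and 6 at 1.5-fold. With 1 kb 3 were higher and 2 lower among Foxi1, Foxj3, Foxi3, Foxl1 and Foxb1 (4.86% and 1.12%). At a score of at least 100 there was 1, lower, Foxc2 (5.16% and 1.03%). By share of each peak there was 1, lower, Foxi1 (2.44% and 0.967%). With 10 kb 2 were higher and 1 lower among Foxi1, Foxe3 and Foxm1 (3.21% and 0.795%). Without shared peaks Foxi1 was lower and Foxa3 higher (4.23% and 2.91%). In H3K4me2 after 4-OHT they numbered 0, and 1 at 1.5-fold. Without shared peaks 2 were higher, Foxj3 and Foxi3 (2.16% and 0.994%). In H3K4me3 after 4-OHT they numbered 0. With 10 kb there was 1, higher, Foxr1 (0.895% and 0.528%). Without shared peaks 2 were higher, Foxj1 and Foxi3 (2.06% and 0.928%). Scaled by tags in peaks, the median log2 ratio of H3K4me2 after 4-OHT was -0.071, against 0.05, and that of H3K4me3 after 4-OHT -0.052, against 0.03. The median widest untreated H3K4me3 peak was 3994 bp after joining, against 3512 bp. For levels around whole genes, the differences between developmental and broadly expressed medians kept their sign in all settings run. After MM-401 the H3K4me3 difference was -0.014 without shared peaks, against -0.15. The H3K4me2 difference after MM-401 was 0.13 with lists of equal number, against 0.21. After 4-OHT the H3K4me1 difference was -0.034 without shared peaks, -0.057 with 1 kb and -0.059 with 10 kb, against -0.11. At the start peaks the sign was not kept for H3K4me1. Developmental and broadly expressed medians there were 0.265 (16 genes) and 0.273 (3 genes) after MM-401. After 4-OHT they were 0.168 (18 genes) and 0.045 (5 genes). For H3K4me2 and H3K4me3 (16 and 7 genes) the sign was kept, mostly with closer medians than over whole genes. Start-peak H3K4me2 in MM-401 cells had medians of 0.35 (developmental) and 0.31 (broadly expressed). In 4-OHT cells it had 0.03 (developmental) and 0.09 (broadly expressed). Start-peak H3K4me3 in 4-OHT cells had -0.02 (developmental) and 0.03 (broadly expressed). H3K4me3 in MM-401 cells was the exception, at 0.08 (developmental) and 0.27 (broadly expressed). The cause of these moves was not tested, beyond the construction of each alternative. No paired analysis was possible because each group had 1 library. At 15 of 41 members a mark peak began within 1 kb beyond the window, so single calls there depend on its edge. The MM-401 H3K4me3 library had the fewest filtered tags, and a weak peak can fall below its calling threshold.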
